A study of Mus musculus with 20 samples.

Results

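Genotype was compared at 7 months in 8 of the 20 enzymatic methyl-seq (EM-seq) libraries of microglia, which are the macrophages that live in the brain. The 8 libraries came from 5 mThy1-α-synuclein (Tg) mice, replicates 1 to 5, and 3 wild-type (WT) mice, replicates 1, 3 and 4. The Tg mice are labelled HEM and carry human α-synuclein driven by the mouse Thy1 promoter, which is active mainly in neurons, on an insertion in the X chromosome. Every mouse was a male of the B6D2F1/J background, a mix of the C57BL/6 and DBA/2 strains, and each library was made from the microglia of a single whole brain. Of the 10 libraries at 7 months, Tg replicate 6 and WT replicate 2 are given for comparison but entered no test. They were selected on their methylation values, which sat with the opposite genotype over the windows that separated 5 Tg and 5 WT mice at 10 months. Only the 19 autosomes were used. The bead selection is named by IBA1 in the labels and by CD11b in the methods, and the purity of the cells was not tested here. Values are the percent methylation of 1 kb windows of the mm10 genome, and a difference is given in percentage points, as Tg minus WT.

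Methylation of a cytosine that is followed by a guanine (CpG) is copied at each cell division and is removed or added during cell differentiation. Most CpGs of the mouse genome are methylated, while CpG-rich promoters and the regulatory elements that a cell type uses are mostly free of it. In EM-seq, a deaminase converts cytosines that lack a methyl group, and sequencing then reports a thymine in their place. A C-to-T difference in the DNA itself is read in the same way, and because the files give fractions without base calls, differences between the parental strains cannot be told apart from methylation in any window below. Microglia carry low methylation at their own identity genes, such as Csf1r and P2ry12, and change state around α-synuclein, the main protein of Lewy bodies in Parkinson's disease.

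The sequences below belong to windows with the largest differences between the 7-month groups, and they show how few CpGs some of those differences rest on. They were taken from the GRCm38 reference (mm10), are written 5′ to 3′ on the plus strand, and hold each CpG in capitals. The first lies between genes, where the nearest protein-coding gene is named here, and is nearest to Prdm9, a histone methyltransferase of meiotic recombination (chr17:15606426-15606661, 4 of the 6 CpGs of its window), and the second in an intron of Rsph3b, a radial spoke protein of cilia (chr17:6917722-6918000, 4 of 7 CpGs).
Prdm9 side: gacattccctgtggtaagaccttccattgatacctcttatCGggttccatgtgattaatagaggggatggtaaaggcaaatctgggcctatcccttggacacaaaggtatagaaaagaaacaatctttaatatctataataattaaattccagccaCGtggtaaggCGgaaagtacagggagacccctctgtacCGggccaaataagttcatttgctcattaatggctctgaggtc
Rsph3b intron: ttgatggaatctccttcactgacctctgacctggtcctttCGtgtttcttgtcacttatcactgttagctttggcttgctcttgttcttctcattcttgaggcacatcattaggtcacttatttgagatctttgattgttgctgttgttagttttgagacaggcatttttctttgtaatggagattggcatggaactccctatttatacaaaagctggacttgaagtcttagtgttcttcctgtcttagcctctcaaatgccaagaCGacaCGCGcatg
Also between genes, the windows nearest to Rgmb, a co-receptor of bone morphogenetic proteins (chr17:16314927-16315000, its only CpG), and to Bank1, a B cell scaffold protein (chr3:136334280-136334361 and chr3:136334722-136334803, its only CpGs), read as follows.
Rgmb side: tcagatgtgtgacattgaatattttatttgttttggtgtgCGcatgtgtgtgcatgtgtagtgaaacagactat
Bank1 side, first CpG: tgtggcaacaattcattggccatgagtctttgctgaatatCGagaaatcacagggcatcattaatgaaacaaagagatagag
Bank1 side, second CpG: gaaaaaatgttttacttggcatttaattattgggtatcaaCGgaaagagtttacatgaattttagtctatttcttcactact
The windows lower in Tg are represented by introns of Pde4d, a phosphodiesterase that degrades cyclic AMP (chr13:108540261-108540342, its only CpG), and of Sh3gl2, which encodes endophilin A1 of synaptic vesicle endocytosis (chr4:85397492-85397618, 10 of 17 CpGs).
Pde4d intron: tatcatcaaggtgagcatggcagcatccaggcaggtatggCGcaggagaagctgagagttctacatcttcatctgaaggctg
Sh3gl2 intron: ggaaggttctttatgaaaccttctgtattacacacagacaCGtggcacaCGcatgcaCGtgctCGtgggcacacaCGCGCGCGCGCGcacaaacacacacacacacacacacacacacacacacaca

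The values that chose the libraries are given first, as a description. At 10 months, 843 autosomal windows were differentially methylated regions (DMRs), defined as windows whose group means differed by at least 25 points with an adjusted p under 0.01, and 762 of them were measured at 7 months. On a scale on which 0 is the WT mean and 100 the Tg mean at 10 months, Tg 1 to 5 lay at 84.3, 87.5, 88.9, 82.3 and 89.5. WT 1, 3 and 4 lay at 27.9, 10.4 and 35.2. Of the libraries left out, Tg 6 lay at 20.9, between the WT libraries, and WT 2 at 91.1, above every Tg library. The members of each genotype nearest to the midpoint of 50 were Tg 4 and WT 4, and no library lay between 35.2 and 82.3.

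**Figure D1:**
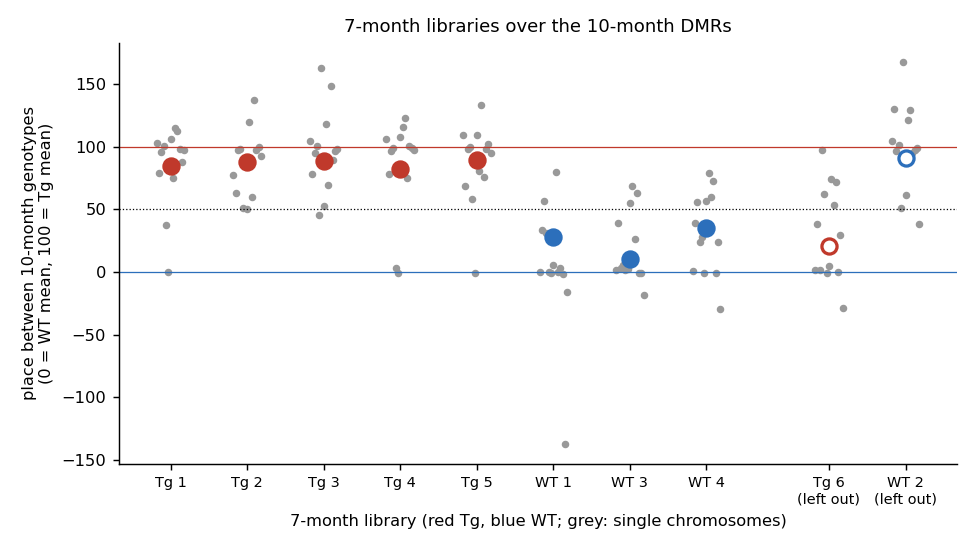
Place of each 7-month library between the 10-month genotype means over the 762 windows (vertical axis, 0 for the WT mean and 100 for the Tg mean), with single chromosomes as grey points. The 5 Tg libraries lie between 82.3 and 89.5 and the 3 WT libraries between 10.4 and 35.2, while Tg 6 (20.9) and WT 2 (91.1) lie with the opposite genotype.

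The separation was uneven across chromosomes. Over the 109 such windows of chromosome 13, the Tg libraries lay between 89.6 and 100.3 and the WT libraries at −1.25, −0.59 and −1.19. Over the 278 windows of chromosome 3, the Tg libraries lay between 94.7 and 98.2, but WT 1 and WT 4 lay at 56.5 and 55.7 and only WT 3, at 3.51, lay near the WT mean of 10 months. Over the 103 windows of chromosome 5, the Tg libraries reached 57.8 at most and Tg 4 lay at 3.34, below WT 4 at 28.2. Over the 58 windows of chromosome 9, the WT libraries lay at 79.5, 68.7 and 79.1, close to Tg 1 at 75.2.

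Mean autosomal methylation was 75.3, 76.9, 76.7, 75.6 and 76.2% in Tg 1 to 5 and 76.6, 76.9 and 76.9% in WT 1, 3 and 4. The Tg mean of 76.2% ± 0.67 (SD, n = 5) and the WT mean of 76.8% ± 0.15 (SD, n = 3) differed by −0.66 points, less than the spread of the Tg libraries (p = 0.179, exact two-sided permutation test, for which 0.0357 is the smallest value possible). Means over promoter, exon, intron and intergenic windows were each lower in Tg, with differences of −0.496 to −0.84 points and adjusted p between 0.238 and 0.321 (exact permutation test). All 19 chromosome means were lower in Tg. In 6 of them the exact permutation test reached its smallest p of 0.0357, and the smallest adjusted p was 0.113. All of these means take in every autosomal window, including those that chose the libraries, so their p values are not free of that choice. The chromosome 3 mean turned to higher without Tg 1, Tg 4 or WT 4, and that of chromosome 17 without Tg 1. The depth behind the windows is unknown, since the files give no counts.

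Between the 5 Tg and the 3 WT libraries, 368 of 2214530 windows were DMRs, which is 0.0166% of the windows tested by limma. Methylation was higher in Tg in 271 and lower in 97. The count was 222 without WT 1, 227 without Tg 5, 230 without WT 4 and 231 without WT 3. A further look at size alone found 9208 windows with a difference of at least 25 points, 4782 of them higher in Tg. An unadjusted p under 0.05 was found in 149021 of the 2214530 windows, where chance gives a share of 0.05. The median difference was 58.7 points in the DMRs that were higher in Tg and −44.0 points in those that were lower. In 176 of the 271 higher DMRs, all 3 WT libraries were at 0%, and in 37 of the 97 lower DMRs, all 5 Tg libraries were at 0%. In all 368 DMRs the groups did not overlap, as in 5.08% of all windows. With Tg 6 and WT 2 in the groups their labels give, no window was a DMR by limma. Then 117577 of the 2214530 windows had an unadjusted p under 0.05, close to the share of 0.05 that chance gives. A difference of at least 25 points was found in 3372. Tg 6 lay on the WT side of the midpoint in 291 of the 368 DMRs, and WT 2 on the Tg side in 320.

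DMRs were poor in CpGs and lay mostly outside promoters. The reference holds a median of 3 CpGs in the DMRs and 7 in all windows tested, and 38.6% of the DMRs held 1 or 2 CpGs, against 9.05% of all windows. Intergenic windows made up 51.4% of the DMRs and 47.2% of all windows, introns 44.0% and 38.2%, promoters (within 2 kb of a start) 3.8% and 11.7%, and exons 0.815% and 2.84%. DMRs lay together, and 76.9% had another DMR within 100 kb. In stretches of at least 3 DMRs whose neighbours lay within 1 Mb of each other, 29 stretches held 337 DMRs and, but for 1 window on chromosome 1, all members of a stretch moved in the same direction.

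By chromosome, the DMRs numbered 87 on chromosome 1 (86 higher in Tg), 75 on chromosome 16 (all higher), 48 on chromosome 13 (47 lower), 45 on chromosome 4 (all lower), 30 on chromosome 17 (all higher), 28 on chromosome 3 (all higher), 21 on chromosome 5 (all higher) and 12 on chromosome 19 (all higher). Chromosomes 2, 6, 8, 11 and 18 held none.

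**Figure D2:**
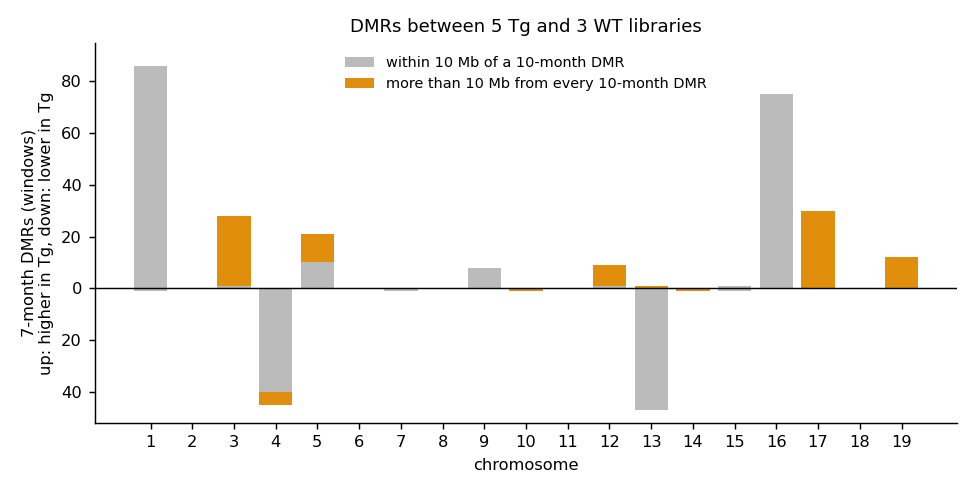
Number of 7-month DMRs on each autosome, with windows higher in Tg above the line and lower in Tg below it. Grey bars count windows within 10 Mb of a 10-month DMR and orange bars windows farther away. Chromosomes 1, 13 and 16 hold mostly grey counts (87, 48 and 75 DMRs), while all 30 DMRs of chromosome 17 and all 12 of chromosome 19 are orange.

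Of the 368 DMRs, 272 lay within 10 Mb of a 10-month DMR (0.0406% of the 669978 windows there). The choice of libraries used such windows, so their values are a description. Of these, 182 were higher in Tg and 90 lower, 78 were 10-month DMRs themselves and 243 lay within 1 Mb of one.

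The gene with the most DMRs was Rbfox1, a neuronal splicing regulator on chromosome 16, with 39, all higher in Tg. Their mean was 81.1, 81.1, 82.1, 79.5 and 81.1% in Tg 1 to 5 and 23.0, 22.6 and 23.4% in WT 1, 3 and 4. Tg 6 stood at 26.6% and WT 2 at 56.7%, between the groups. In the window of Rbfox1 with the widest gap, chr16:7381001-7382000 with 2 CpGs, Tg 1 read 93.1%, Tg 2 to 5 read 100% and the 3 WT libraries read 0%. On chromosome 1, Xkr4, of the XK family of membrane proteins, held 9 DMRs with means of 55.4 to 64.4% in Tg and 4.09 to 4.49% in WT. Rp1, a microtubule protein of photoreceptors, held 5, with 68.0, 51.2, 72.5, 68.9 and 76.3% in Tg 1 to 5 and 4.00 to 5.71% in WT. Kcnq5, a potassium channel subunit, held 4, with 81.4 to 86.1% in Tg and 14.1 to 16.7% in WT.

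Lower methylation in Tg was found along chromosome 13 in Pde4d (10 DMRs). The Pde4d DMRs had means of 25.5, 26.1, 27.8, 24.7 and 26.6% in Tg 1 to 5 and 90.0, 91.3 and 88.6% in WT 1, 3 and 4. In the window of the Pde4d sequence above, Tg libraries read 0 to 4.00% and WT libraries 91.7, 100 and 93.5%. On chromosome 4, Ptprd, a receptor tyrosine phosphatase of synapses, and Skint2, of a family needed for intraepithelial T cells of the skin, held 5 DMRs each. Ptprd read 0 to 0.57% in Tg and 39.6, 46.0 and 36.6% in WT. Skint2 read 0 to 0.385% in Tg and 47.5, 48.5 and 43.3% in WT. Unlike on chromosomes 1, 13 and 16, the left-out Tg 6 read like the other Tg libraries here, at 0.333% in Ptprd and 1.52% in Skint2.

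The remaining 96 DMRs lay more than 10 Mb from every 10-month DMR, in 1544552 windows that were not themselves used to choose the libraries (0.00622%). Of these, 89 were higher in Tg (0.00576%) and 7 lower (0.000453%). The groups did not overlap in any of the 96, nor in 4.7% of all windows there. The median difference was 53.2 points in the higher and −36.3 points in the lower windows. Chromosomes 14, 17 and 19 held no 10-month DMR at all, and 42 of their 43 DMRs were higher in Tg. The other windows away share a chromosome with a 10-month DMR, so a distance of 10 Mb need not make their values independent of the choice. Of the 96, 80 lay in 11 stretches of at least 3 DMRs, and in each stretch every Tg library was above every WT library. The latter follows from the calls, since the groups did not overlap in any of the 96. Leaving out 1 library at a time gave 50 to 88 such DMRs, and the count fell to 56 without Tg 5, 54 without WT 1, 59 without WT 3 and 50 without WT 4. The share of higher windows moved as well, with 59 of 78 higher without Tg 1, 87 of 88 without Tg 4, 55 of 56 without Tg 5, and 98 of 116 at more than 5 Mb. As labelled with all 10 libraries, limma gave 0. Of the 1544552 windows, 78531 then had an unadjusted p under 0.05, close to the share of 0.05 that chance gives. Tg 6 lay on the WT side of the midpoint in 75 of the 96 DMRs, and WT 2 on the Tg side in 75. The calls away thus also depend on leaving these libraries out. Their adjusted p was taken over all 2214530 windows, those near the 10-month DMRs included. The main axis of variation over all windows away (first principal component, 18.2% of the variance) did not separate the genotypes (p = 0.357, exact two-sided permutation test). On it Tg 2 and Tg 3 lay on the side of the WT libraries and Tg 1, 4 and 5 on the other. On the second component (16.5%) the groups did not overlap, and it was not tested.

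Chromosome 17 held the largest of these differences, in 4 stretches from chr17:3353001 to 16315000. The first stretch, chr17:3353001-4561000, held 8 DMRs with means of 93.9, 91.7, 93.0, 92.6 and 91.0% in Tg 1 to 5 and of 31.7% ± 0.72 (SD, n = 3) in the WT libraries. Tg 6 stood between the groups at 65.4%, and WT 2 stood with the Tg libraries at 91.8%. In the last, chr17:15606001-16315000, 3 DMRs read 87.0 to 95.8% in Tg and 0% in WT, with Tg 6 at 73.4% and WT 2 at 90.9%.

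On the same chromosome, the Rsph3b window whose sequence is given above read 91.0 to 94.2% in the Tg libraries and 0% in WT (chr17:6917001-6918000, 7 CpGs, difference 93.3 points). Between genes, the windows chr17:15606001-15607000, nearest to Prdm9, and chr17:4384001-4385000, nearest to Arid1b, a chromatin remodeller, differed by 94.2 and 94.1 points. In the first, Tg 1 to 5 read 100, 100, 86.4, 87.5 and 97.1% and the WT libraries 0%, while both left-out libraries read high, Tg 6 at 100% and WT 2 at 90.6%. The windows of Rsph3b and of the Arid1b side were DMRs with each library left out in turn, whereas that nearest to Prdm9 was lost without Tg 5 or any of the WT libraries.

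**Figure D3:**
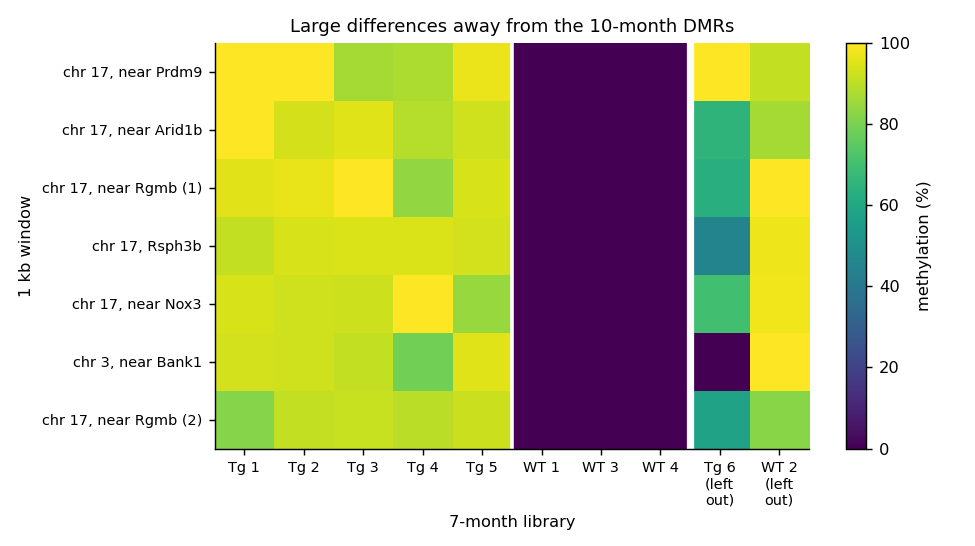
Percent methylation (colour) of 7 windows among those with the largest differences more than 10 Mb from every 10-month DMR (rows) in each 7-month library (columns, left-out libraries at the right edge). The 3 WT libraries read 0% in each window and the 5 Tg libraries 78.6 to 100%, and in the windows of chromosome 17 Tg 6 reads 45.2 to 100%.

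On chromosome 3, 27 DMRs lay away from the 10-month DMRs, all higher in Tg. The chromosome also held 278 of the 762 windows that placed the libraries, so the p value here is not free of that choice. The window nearest to Bank1, whose CpGs are shown above, read 93.2, 92.9, 90.9, 78.6 and 95.2% in Tg 1 to 5 and 0% in the 3 WT libraries (difference 90.2 points, adjusted p = 5.2e-05, limma). Stpg2, which encodes a sperm tail protein, held 3 DMRs with means of 87.3, 77.7, 83.8, 50.02 and 69.8% in Tg and 0% in WT, and here Tg 4 was the lowest Tg library. The stretch of 14 DMRs at chr3:139548001-140681000 read 69.0, 73.5, 70.05, 46.1 and 66.4% in Tg 1 to 5 and 0% in every WT library. Tg 6 read 0.84% there and WT 2 71.3%, so both lay with the opposite genotype.

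On chromosome 19, the 12 DMRs at chr19:59549001-61159000 read 48.9, 48.4, 49.7, 45.4 and 49.9% in Tg 1 to 5 and 0% in WT. They include 2 in Grk5, a kinase of G protein-coupled receptors, with differences of 38.9 and 44.7 points. Both left-out libraries were low here, Tg 6 at 3.63% and WT 2 at 5.76%. On chromosome 12, the stretch of 8 DMRs at chr12:9864001-10949000 read 42.1, 44.6, 49.98, 65.4 and 44.97% in Tg and 0, 0.14 and 0% in WT, with Tg 6 at 0% and WT 2 at 68.5%. On chromosome 5, the stretch of 3 DMRs at chr5:89645001-89939000, partly in Adamts3, a protease that processes collagen and lymphatic growth factors, read 55.2, 61.1, 69.4, 57.1 and 56.3% in Tg and 0% in WT. Tg 6 read 0% and WT 2 4.00% there. Over the 11 stretches, Tg 6 lay nearer to the WT mean in 7, the exceptions being the 4 of chromosome 17. WT 2 lay nearer to the Tg mean in 8, the exceptions being both stretches of chromosome 5 and that of chromosome 19.

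The 7 lower windows were few and smaller. An exonic window of Khdrbs1, the RNA-binding protein Sam68 (chr4:129729001-129730000, 6 CpGs), read 63.5% ± 6.3 (SD, n = 5) in the Tg libraries and 95.3% ± 0.39 (SD, n = 3) in WT (adjusted p = 0.00456, limma). A window 5197 bp from the same gene read 52.7% ± 12.1 and 97.2% ± 0.39 (adjusted p = 0.00464). A window with 1 CpG in an intron of Junos, the antisense neighbour of the transcription factor gene Jun, read 0% in every Tg library and 39.2% ± 20.1 in WT (adjusted p = 0.00233). The window chr4:134337001-134338000, upstream of the pseudogene Gm13195, differed by −34.9 points. The others lay between genes, with Fggy (difference −36.3 points), Gm4340 (−33.5) and Oxgr1 (−41.6) as the nearest protein-coding genes.

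The same stretches are described at 10 months by the values of their DMRs that were measured there. The stretches had been taken away from every 10-month DMR, so a called window could not be met in them and no test was made. Their windows were also picked for a large 7-month difference, so a smaller one at 10 months follows in part from the choice. The 7-month libraries were kept for their likeness to the 10-month genotypes, which favours the same direction at both ages. The 11 stretches hold 80 of the 96 windows, so the directions are not independent and the shares below are a description. Of the 96 windows, 77 were measured at 10 months and 73 of them (94.8%) differed in the same direction as at 7 months, against 71.9% of the 3562 windows away that differed by 25 points at 7 months without being DMRs and 53.1% of all windows away. Their median difference was 48.8 points at 7 months and 11.9 points at 10 months, and 8 differed by at least 25 points in the same direction. In the last stretch of chromosome 17, Tg 1 to 5 at 10 months read 2.83, 84.0, 2.70, 87.5 and 64.6%, and WT 1 to 5 read 53.6, 9.39, 45.7, 12.1 and 58.6%. In the stretch of 14 DMRs on chromosome 3, Tg 1 to 5 at 10 months read 70.6, 67.0, 44.4, 3.52 and 36.2%, and WT 1 to 5 read 4.17, 8.89, 5.76, 68.6 and 63.6%. High and low libraries thus occurred in both genotypes at 10 months. On chromosome 19, Tg 3 at 10 months read 41.8% and the other 9 libraries 0 to 2.30%. On chromosome 12, Tg 4 and Tg 5 at 10 months read 39.1 and 38.9%, the other Tg libraries 0.21 to 2.53%, and the WT libraries 0 to 0.0928%. Over the 11 stretches the 7-month WT libraries of the comparison read 0 to 35.5%, and the 10-month WT libraries 0 to 86.4%.

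**Figure D4:**
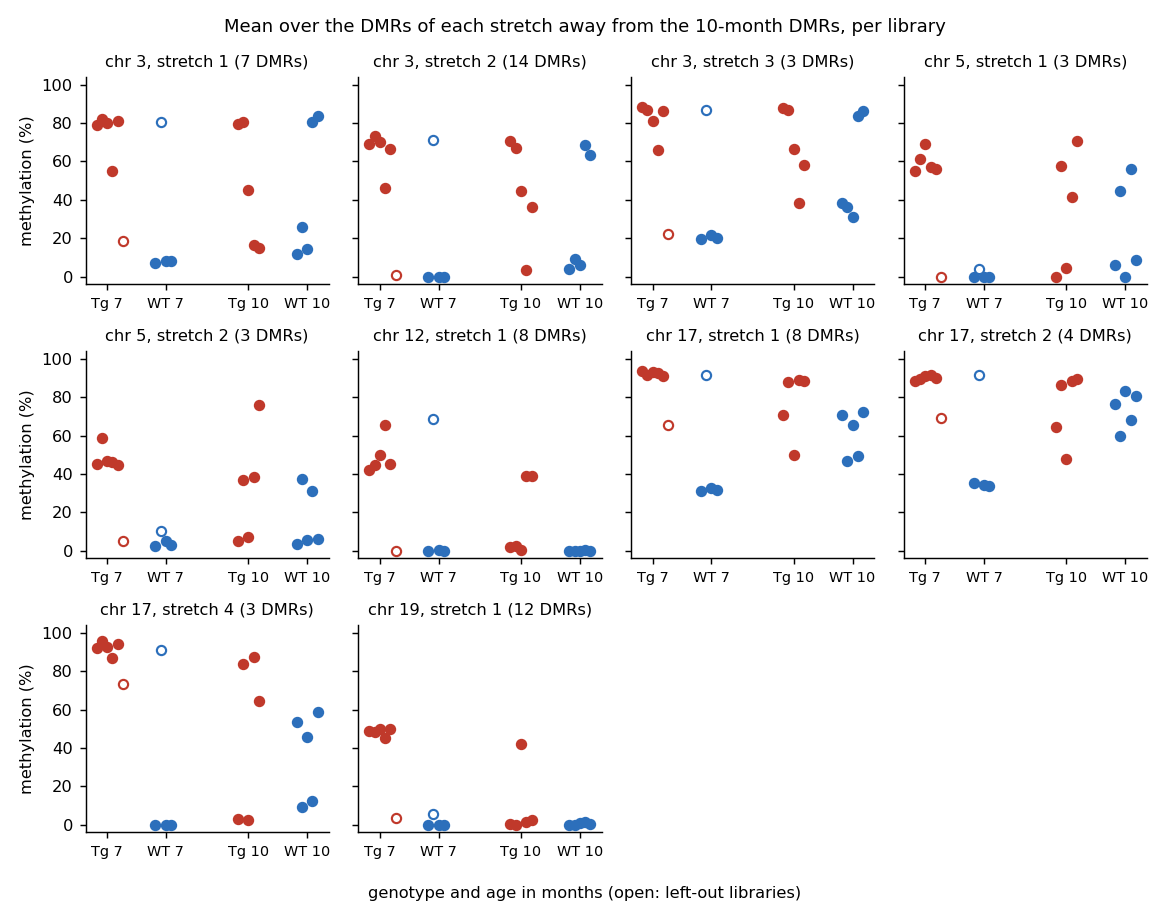
Mean percent methylation over the DMRs of 10 stretches away from the 10-month DMRs, per library, by genotype and age (red Tg, blue WT, open circles for the left-out 7-month libraries). At 7 months the filled points of Tg lie above those of WT in each panel, whereas at 10 months the genotypes overlap in each panel but that of chromosome 12. The windows were picked for a 7-month difference and away from every 10-month DMR, so this contrast follows in part from the choice.

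A change of the genotype difference with age passed in 6 of 2183682 windows measured at both ages (0.000275%). Each of them is a 10-month DMR and thus belongs to the values that chose the libraries, so they are described only. In all 6 the 5 WT libraries at 10 months read 0%. In the window that starts at chr3:156721001, Tg 1 to 5 read 80.2, 37.2, 49.4, 48.2 and 76.2% at 7 months, WT 1, 3 and 4 read 54.9, 52.0 and 46.2%, and the Tg libraries at 10 months 75.3 to 87.2%. In that at chr9:84039001, the 7-month libraries read 64.8 to 77.6% in Tg and 64.6 to 68.2% in WT, and the 10-month Tg libraries 59.1 to 78.9%. In each of these windows the 7-month groups overlapped or lay close together. In 5 of the 6 the 7-month WT libraries of the comparison read 21.2 to 68.2%, whereas at chr2:148779001 they read 0% as at 10 months, and there the Tg libraries read 0 to 2.13% at 7 months and 15.7 to 35.6% at 10 months. Age cannot be told apart from processing, since each age was handled on its own.

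Over bins of 1 Mb, mean methylation differed at an adjusted p under 0.05 in 85 of 2405 bins (3.53%, limma), with 33 higher and 52 lower in Tg. Away from the 10-month DMRs, 40 of 1663 bins passed (2.41%), with 12 higher and 28 lower. The higher ones lay on chromosomes 3 (4 bins), 17 (4 bins), 19 (3 bins) and 5 (1 bin). The median of all bins was −0.64 points and 82.9% of all bins were lower in Tg. Of all bins away, 87.9% were lower, with a median of −0.685 points. The bins from chr19:59000001 to the distal end were higher by 3.00, 4.09 and 3.46 points, with adjusted p of 0.0067, 0.00192 and 0.00294. Elsewhere on chromosome 19, the bins from chr19:8000001, 18000001 and 20000001 differed by −2.30, −2.79 and −2.87 points. Chromosome 4 held 12 lower bins away, of which chr4:133000001-134000000 fell most, from 73.3% ± 0.29 (SD, n = 3) in WT to 68.6% ± 1.5 (SD, n = 5) in Tg (difference −4.69 points, adjusted p = 0.0206). Chromosome 8, with no DMR, held 6 lower bins away, from chr8:93000001 to 103000000, with differences of −1.81 to −2.64 points. The bin chr7:119000001-120000000 fell by 5.51 points (adjusted p = 0.0269). The count of bins was 19 without WT 1, 32 without WT 3, 36 without Tg 5, 40 without WT 4, 48 without Tg 4 and 54 without Tg 3. The split was 26 higher and 22 lower without Tg 4, 20 and 12 without WT 3 and 21 and 19 without WT 4, so that lower bins were not the majority in these. The count was 0 with all 10 libraries, where 159 of the 2405 bins had an unadjusted p under 0.05, against a share of 0.05 by chance.

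Promoters (windows within 1 kb of a start) differed in 6 of 20380 genes (0.0294%, adjusted p under 0.05, limma). Of the 4 away from the 10-month DMRs, 4930522L14Rik on chromosome 5 read 29.9, 21.4, 17.1, 35.7 and 31.8% in Tg 1 to 5 and 0, 0.115 and 0% in WT (difference 27.1 points, adjusted p = 0.000295). Gm17655, on the same chromosome, read 81.7% ± 3.8 (SD, n = 5) in the Tg libraries and 52.7% ± 2.7 (SD, n = 3) in WT (adjusted p = 0.00208). Coq2, an enzyme of coenzyme Q synthesis, read 11.5, 12.5, 13.4, 11.3 and 11.1% in Tg and 19.97, 22.5 and 20.3% in WT (difference −8.96 points, adjusted p = 0.0427). Gm14305 read 0.0595% in Tg and 1.52% in WT (adjusted p = 0.017), a difference of −1.46 points that turned direction with a wider promoter. The others, Skint11 and Gm13271, lie near 10-month DMRs, and the promoter of Skint11 read 0% in every Tg library and 55.7, 42.3 and 59.0% in WT. The calls of 4930522L14Rik and Gm17655 held with each library left out in turn, that of Coq2 only without Tg 3, and that of Gm14305 only without Tg 5. The count of promoters was 3 without Tg 1, Tg 4, WT 1 or WT 3, and 0 with all 10 libraries. There 1204 of the 20380 had an unadjusted p under 0.05, against a share of 0.05 by chance.

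Gene bodies differed in 35 of 19181 genes (0.182%), with 22 higher and 13 lower in Tg. Near the 10-month DMRs, as a description, Rbfox1 read 77.1% in Tg and 66.5% in WT, Tram2, of the protein translocation machinery, 88.4 and 82.1%, Paqr8, a membrane progestin receptor, 78.2 and 67.4%, Parn, a poly(A) ribonuclease, 93.4 and 88.9%, and Abhd14b, a hydrolase, 65.7 and 40.01%. Skint11, Skint2 and Skint5 read 38.7, 33.9 and 38.4% in Tg and 52.3, 51.8 and 55.3% in WT. Away from them, Map3k4, a kinase upstream of p38 and JNK on chromosome 17, read 89.2, 89.6, 89.1, 88.5 and 88.7% in Tg 1 to 5 and 83.2, 83.4 and 82.7% in WT (adjusted p = 0.00727). Gpn2, a small GTPase on chromosome 4, read 70.8, 69.6, 77.7, 72.5 and 73.2% in Tg and 83.3, 82.8 and 84.1% in WT (difference −10.6 points, adjusted p = 0.0137). Tmem234, a membrane protein gene on the same chromosome, read 65.3% ± 1.7 (SD, n = 5) in the Tg libraries and 73.3% ± 1.2 (SD, n = 3) in WT (adjusted p = 0.0284). A pair of further genes was named after their values were seen. Sfxn4, a mitochondrial transporter gene inside the stretch of chromosome 19, read 78.5% ± 1.2 and 66.5% ± 0.26 (adjusted p = 0.0124), and C1qb, a chain of complement C1q made by microglia, read 47.9% ± 1.4 and 55.7% ± 1.2 (adjusted p = 0.0328). The calls of Gpn2 and Sfxn4 were lost without any of the WT libraries and that of Map3k4 without WT 1 or WT 4, while Tmem234 and C1qb passed only without Tg 1. The count of gene bodies was 0 without WT 1 or without WT 4, 7 without WT 3, 16 without Tg 3 and 17 without Tg 5, and without Tg 1 it was 39, with 18 higher and 21 lower. It was 0 with all 10 libraries, where limma gave 1185 of the 19181 at an unadjusted p under 0.05, against a share of 0.05 by chance.

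The promoters of genes that define microglia read lower in Tg as a list, and none passed the test singly. Of 17 listed genes, 16 had a measured promoter, 15 were lower in Tg and 0 passed, where 0.0294% of all promoters did. The median difference was −5.07 points, against −0.335 points over all 20380 genes, of which 58.2% were lower, and it was −2.78 points without WT 3. Among the 12 genes away from the 10-month DMRs, 11 were lower, with a median of −4.14 points. The mean over the list was 23.2, 26.5, 24.2, 26.7 and 24.3% in Tg 1 to 5 and 28.9, 34.5 and 28.4% in WT 1, 3 and 4, so the groups did not overlap. The left-out Tg 6 read 29.2% and WT 2 24.7%, each within the range of the opposite genotype. The list mean and the counts over all 16 promoters include genes near 10-month DMRs, whose values are a description. No single promoter passed over all genes, although some of them did not overlap between the groups. Csf1r, the receptor on whose signal microglia depend for survival, read 39.4, 42.6, 40.3, 39.4 and 44.8% in Tg and 52.9, 50.8 and 45.8% in WT (difference −8.55 points, adjusted p = 0.300, limma). P2ry13 and P2ry12, purinergic receptors that sense extracellular nucleotides, lie near 10-month DMRs and differed by −11.0 and −7.31 points. In P2ry13, Tg 1 to 5 read 4.82, 9.38, 5.20, 8.02 and 3.13% and WT 1, 3 and 4 read 12.6, 18.9 and 19.8%. The groups did not overlap in 5 of the 16 promoters, and in 1291 of all 20380.

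**Figure D5:**
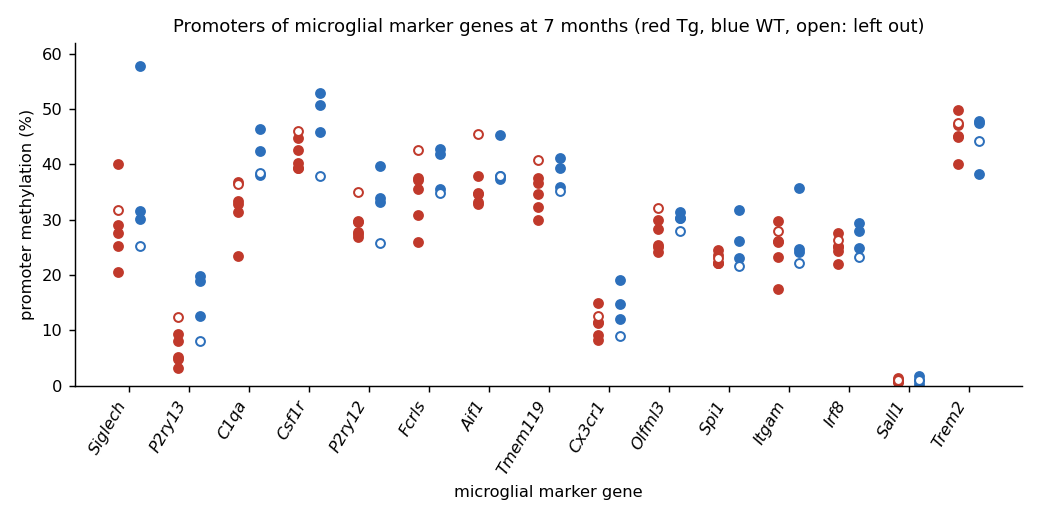
Percent methylation of the promoters of 15 microglial marker genes in each 7-month library (red Tg, blue WT, open circles for the left-out libraries). The mean of Tg lies below that of WT in 14 of the 15 genes, with the widest gaps in Siglech (−11.4 points) and P2ry13 (−11.0 points), and the groups overlap in all but 5 genes.

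Over the bodies of the same genes, 15 of 16 were lower in Tg and 1 passed, where 62.1% of all 19181 bodies were lower and 35 passed. It was Sall1, the transcription factor that keeps microglial identity, with 31.9, 30.7, 30.6, 28.4 and 29.2% in Tg 1 to 5 and 36.0, 39.5 and 38.2% in WT 1, 3 and 4. The difference of −7.73 points had an adjusted p of 0.0328 (limma), which ranged from 0.0333 to 0.81 over the alternatives, and the body of Sall1 still passed without Tg 2 but not without any other single library (adjusted p = 0.055 to 0.148). The body of Csf1r differed by −5.83 points (adjusted p = 0.183). The median over the list was −5.09 points, against −0.368 points over all 19181 genes. The list mean was 43.9 to 46.1% in the Tg libraries and 48.5 to 52.7% in the WT libraries, with Tg 6 at 49.2% and WT 2 at 44.2%. The groups did not overlap in 9 of the 16 bodies, and in 1911 of all 19181.

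Markers of other cells that the preparation could hold are given beside these values. List means over promoters were 29.6 to 31.3% in Tg and 29.8 to 31.05% in WT for 10 neuronal genes, 58.2 to 61.0% and 58.3 to 60.6% for 8 astrocyte genes, 47.1 to 49.8% and 47.5 to 50.6% for 8 oligodendrocyte genes, 68.1 to 72.8% and 72.1 to 74.2% for 6 genes of blood leukocytes, and 46.0 to 48.7% and 46.9 to 50.01% for 6 endothelial genes. Of the blood leukocyte promoters 5 of 6 were lower in Tg, with a median of −2.90 points, which was −1.93 points without Tg 1 and 0.617 points over promoters of 2 kb. Of the endothelial promoters 5 of 6 were lower too, with a median of −1.19 points, which was −0.58 points without WT 1 and −2.10 points without WT 3. In bodies, 2 of 5 were lower in either list. The median was 2.28 points for blood leukocytes, which was 1.46 points without WT 3 and −0.433 points without WT 4, and 0.909 points for endothelium, which was 0.515 points without WT 3. The groups overlapped over the promoters of each of these lists. In them 0 promoters and 0 bodies passed, where 0.0294% of all promoters and 0.182% of all bodies did. The part of a different share of other cells in the microglial values was not tested. Over 7 lists (neurons, astrocytes, oligodendrocytes, endothelium, blood leukocytes, DNA methylation machinery and imprinted genes), 0 members passed, and those of smallest adjusted p differed by −6.93 to 3.64 points in promoters and by −4.70 to 5.97 points in bodies, with smallest adjusted p of 0.552 and 0.112.

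Genes of disease-associated microglia, the state found around amyloid and other deposits, showed 0 calls in 17 promoters, of which 12 were lower in Tg, with a median of −1.42 points (−0.866 points without WT 1). Over all genes 0.0294% of promoters and 0.182% of bodies passed. So 0 calls in lists of this size, here and below, do not set them apart from other genes. Tyrobp, the signalling adaptor of TREM2, read 4.38, 13.3, 5.99, 7.74 and 5.67% in Tg and 11.7, 20.6 and 16.9% in WT (difference −8.98 points, adjusted p = 0.410, limma), and the groups overlapped. Gpnmb and Cd9 differed by −5.03 and −2.34 points, the latter by −0.866 points without WT 1 and −4.24 points without WT 3. In bodies, 11 of 17 were lower, close to the share of all bodies, and the lysosomal protease gene Ctsd differed by −8.58 points (adjusted p = 0.137), Apoe by −6.24 and Gpnmb by 0.156 points, the last turning to −0.0971 points without Tg 2, −0.0354 points without WT 3 and −0.337 points with all 10 libraries.

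Toll-like receptors and the NF-kB pathway, which carry the inflammatory response to extracellular α-synuclein, had 0 calls in 16 promoters. Of these 14 were lower in Tg, with a median of −1.53 points. Tlr2, a receptor for α-synuclein oligomers, read 16.9% ± 2.4 (SD, n = 5) in the Tg libraries and 23.6% ± 1.9 (SD, n = 3) in WT (adjusted p = 0.341), Ticam1, an adaptor of TLR3 and TLR4, differed by 1.82 points and Tlr6 by −1.65 points. Ticam1 differed by 0.647 points without Tg 5, 0.913 points without Tg 3 and 2.84 points without Tg 2. In the bodies Tlr2, Rela and Irak4 differed by −3.07, −2.53 and 1.61 points (Irak4 0.937 points without WT 1), and 0 of 16 passed. The inflammasome and cytokine list had 0 calls in 18 promoters, 12 of them lower, with a median of −2.01 points. Nlrp3, the sensor of the inflammasome, read 9.78, 10.1, 9.77, 6.30 and 6.46% in Tg and 12.6, 21.4 and 17.6% in WT, and Il1a, an interleukin 1 gene, differed by −7.65 points, both near 10-month DMRs. Ccl3, a chemokine gene, differed by −5.93 points (adjusted p = 0.55), or −3.28 points without WT 3. In the bodies Il1a, Nlrp3 and Ccl4 differed by −5.20, −3.43 and −14.8 points, and 0 of 16 passed.

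Parkinson-linked genes held no called promoter or body, where 0.0294% of all promoters and 0.182% of all bodies were called. This is over whole promoters and bodies, and single windows inside them are not counted. Over 15 promoters the median was −0.193 points (−1.13 to 0.107 points without 1 library), 9 were lower and 0 passed. Synj1, a phosphatase of synaptic vesicle recycling, differed by −3.85 points, Dnajc6, which encodes auxilin, by −4.08 and Atp13a2, a lysosomal transporter, by −1.13 points (adjusted p of 0.491, 0.60 and 0.70). Over 15 bodies the median was −0.366 points (−0.771 to −0.151 points without 1 library) and 0 passed, with Atp13a2 at −0.64 points (−0.406 points without Tg 5). Genes of cholesterol transport under the liver X receptors had 0 calls in 10 promoters and 0 in 10 bodies. Nr1h2 and Nr1h3, the receptors themselves, differed by −2.43 and 2.56 points in promoters and Scd1, a desaturase, by −2.42 points, and the bodies of Nr1h3, Mylip and Abcg1 differed by −3.92, −3.81 and −1.83 points. Without WT 1, without Tg 1 and without WT 3 the promoter of Nr1h3 differed by 0.326, 1.37 and 4.33 points, and over 2 kb it turned to −0.719 points. Without WT 3 its body differed by −2.11 points.

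In Thy1, whose promoter drives the transgene, the window chr9:44045001-44046000 is itself a 10-month DMR and is described only. It was named as the one with the largest absolute difference among the 6 windows of the gene. Tg 1 to 5 read 28.2, 75, 59.5, 31.4 and 32.3% and WT 1, 3 and 4 read 82.0, 80.9 and 72.1%, with Tg 6 at 79.3% and WT 2 at 35.6%. Tg 1, 4 and 5 were low and Tg 2 lay within the range of WT. The transgene also carries Thy1 promoter sequence, and the fractions do not separate its reads from those of the gene itself. The Tg values may thus not be those of the gene alone, which was not tested.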

How the data were processed

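DNA methylation was measured by EM-seq in 20 libraries. Per the labels and methods, the authors trimmed reads with Trim Galore 0.6.7, aligned them to mm10 with Bismark 0.23.1 and Bowtie2 2.2.5 and summarised them in 1000 bp windows with methylKit 1.22.0. The deposited values are fractions from 0 to 1 without counts, so depth is unknown, and neither intervals nor the authors' count test could be used. The labels do not give the 2 sequencing batches of the methods, so no within-batch value was computed.

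Fractions were converted to percent. The ratio log2((percent + 1)/(101 − percent)) was fitted by limma 3.58.1 in R 4.3.3 over all autosomal windows, promoters and gene bodies, and to the percent itself over 1 Mb bins with at least 100 windows, 5 Tg against 3 WT, with Benjamini-Hochberg adjustment over each whole table. DMRs needed 25 points and an adjusted p under 0.01, genes and bins an adjusted p under 0.05. DMRs at 10 months were fitted likewise on 5 Tg and 5 WT libraries. What lies within 10 Mb of them was fitted with the rest and enters the counts over whole tables, but its values are only described. Genes were annotated with GENCODE vM21 on GRCm38. Groups follow the labels, and a replicate number only names a mouse. Genes were named by fixed rules. These were Thy1 by its window of largest difference, the largest windows of each chromosome, the 10 largest away and the genes with most DMRs. They further were the promoters and bodies with the smallest adjusted p in each direction, and the 3 members of each list with the smallest adjusted p. Other genes with values fall outside these rules. They are named as the place of a window or stretch described or as members of a list that is drawn, or are said to have been named after their values were seen. The members and gene lists were chosen with earlier results of these data known. Scripts were tested on simulated data, where, of 2214530 windows, 200 were lowered by 25, 50 or 75 points and 1, 71 or 99 of those passed. Some genes and windows are not reported here.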

Additional observations from a re-analysis of the deposited data

Results flagged for a closer look

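Among 118 groups of 4 to 10 libraries, 12 held a library far from the others by Dixon's gap rule. By chance the rule gives about 1 in 20 for normally distributed values. The groups share libraries and windows, and in some all other libraries read 0%, so the count cannot be set against that rate. On chromosome 3, Tg 4 read 54.8% in the stretch of 7 DMRs (the other Tg libraries 78.8 to 82.2%) and 46.1% in that of 14 DMRs (66.4 to 73.5%). On chromosome 1, Tg 2 read 52.6% over the first stretch, which holds Xkr4 and Rp1 (others 64.9 to 68.4%). On chromosome 5, Tg 2 read 58.5% in the second stretch away from the 10-month DMRs (others 44.5 to 46.9%). On chromosome 4, Tg 3 read 1.17, 0.694 and 0.0916% in 3 stretches where the other Tg libraries read 0%. At 10 months, Tg 3 read 41.8% in the stretch of chromosome 19 (others 0 to 2.30%) and WT 4 read 0.0928% in that of chromosome 12, where the other WT libraries read 0%. The promoter of Gm14305 read 0.298% in Tg 5 and 0% in the other Tg libraries. The mean over astrocyte gene bodies was 75.5% in Tg 4 (others 76.7 to 76.8%), and that over blood leukocyte gene bodies was 73.8% in Tg 2 (others 74.97 to 75.5%).

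In 6 windows the genotype difference at 10 months exceeded that at 7 months by the interaction term of limma. The excess was 28.8 points at chr2:148779001, 73.3 points at chr3:156721001, and 60.9, 28.5, 63.5 and 41.6 points at chr9:56001001, 80967001, 84039001 and 86671001. These windows are 10-month DMRs, so the choice of libraries used them and the values are a description.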

How the results depend on the processing

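With all 10 libraries as labelled, the counts of DMRs, of DMRs away from the 10-month DMRs, of bins, promoters and bodies were each 0. An offset of 5 gave 575 DMRs (151 away), and an adjusted p under 0.05 gave 845 (248 away). Leaving out 1 library at a time gave 222 to 302 DMRs, 50 to 88 away, 19 to 117 bins, 3 to 6 promoters, 0 to 40 bodies and 6 to 45 interaction windows. limma on the percent itself gave 11 promoters and 1 interaction window, and all 20 libraries gave 19 interaction windows. Same-numbered libraries did not deviate together (correlations over windows of −0.00864 to 0.0037, and over bins of 0.0663, −0.0623 and 0.178 for numbers 1, 3 and 4). A replicate block over replicates 1, 3 and 4 gave 0 DMRs, 0 away, 350 bins (35 higher and 315 lower), 1 promoter and 0 bodies, while the same 6 libraries without the block, an alternative chosen after seeing the data, gave 182 DMRs, 46 away. Mean differences over chromosomes 3 and 17 ranged from −0.381 to 0.0883 and from −0.372 to 0.0114 points without 1 library. With 2 kb promoters the promoter of Gm14305 differed by 0.654 and the promoter of Nr1h3 by −0.719 points, and the body of Gpnmb by −0.337 points with all 10 libraries and by −0.0971 to 0.422 points without 1 library. The cause was not tested. limma on the percent itself shared 237 of the 368 DMRs, and 53 of the 96 away where it called 140. Other alternatives stayed within 1.5 times the counts given, namely 292 DMRs at 40 points and 256 with at least 3 CpGs, and 116 and 67 away at 5 and 20 Mb. Depth is unknown for every window, and 38.6% of the DMRs rest on 1 or 2 CpGs, against 9.05% of all windows.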
